A study of Mus musculus with 29 samples.

Results

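The genes described here were 4 that encode secreted activators of Wnt signalling (Wnt3a, Wnt5a, Wnt5b and Rspo3) and 6 that are known to respond to it (Axin2, Lef1, Dkk1, Sp5, Nkd1 and Notum). They are 10 of the 23337 genes counted in 29 RNA sequencing libraries from mouse embryos at embryonic day 9.0, and they were taken by name from each count file. The embryos were of the C57BL/6 strain and carried Dll1-YFP, a lineage mark in which YFP labels cells descended from Dll1-expressing mesoderm. Groups SOMA (n = 3), SOMB (n = 4), SOMC (n = 4) and SOMD (n = 4) were YFP+ cells sorted straight from the embryo, ordered from the tail towards the head. SOMA held the presomitic mesoderm and the newest somite, which is not yet committed. The next groups took older somites, which have higher numbers: 2 to 5 in SOMB, then 6 to 9 in SOMC. The SOMD labels all begin at somite 10 but end at 13 in SOMD1, 14 in SOMD2, 15 in SOMD3 and 16 in SOMD4. CTRL (n = 4) and DIR (n = 4) were cultured Dll1-lineage cells labelled as presomitic mesoderm, without and with LDN and SAG, the additions used to induce sclerotome. SAG activates the Hedgehog pathway through Smoothened, and LDN is the short name of inhibitors of BMP receptor kinases. WT (n = 3) and MUT (n = 3) were unsorted trunk tissue, and the sample labels do not name the MUT allele. PEAT, the long non-coding RNA in the title of the series (AI646519 in the files), had 18 to 61 counts in the WT libraries and 0 counts in each MUT library.

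Wnt proteins bind Frizzled receptors and Lrp co-receptors, and this stops the destruction of β-catenin, which enters the nucleus and activates genes with Tcf and Lef factors. R-spondins strengthen the signal by keeping Frizzled receptors on the cell surface. Many of the activated genes encode inhibitors of the pathway, so their transcripts are read as a response to Wnt and also act as a brake on it. In the tail of the embryo Wnt signalling maintains the presomitic mesoderm, and it is known to decline towards the somites.

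The libraries held 11541131 to 44363411 counts over genes, and levels are given below as CPM, the gene's count relative to the scaled total of its library. The SOMC pair 1 and 4 and the SOMD pair 1 and 4 were nearly identical (chi-square per degree of freedom 1.95 and 1.91, against 9.24 or more for all other pairs of SOM libraries within a group). They differed by more than sampling noise and were kept apart. The libraries SOMA1, SOMB1, SOMC1, SOMC4, SOMD1 and SOMD4 had more reads outside annotated features (12.0 to 12.8%) than the other SOM libraries. SOMA1 also stood apart in 8 markers of presomitic mesoderm and tail bud, which summed to 513 CPM there and to 773 and 796 CPM in SOMA4 and SOMA3. SOMB2 stood apart in sclerotome markers (174 CPM, against 67.9 to 99.4 CPM in the other SOMB libraries) and had the lowest tail bud sum of SOMB (34.9 CPM). The labels say nothing of separate embryos or litters, so p-values measure the spread between these libraries, which may be technical in part.

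Between SOMA and SOMB, 8 of the 10 genes fell and none rose, at an adjusted p under 0.05 in edgeR's quasi-likelihood test. Of all 13790 genes tested, 4.55% fell, 4.13% rose and 8.67% changed in either direction. All 4 activators were among those that fell, with a median log2 fold change of −2.12. Among the response genes Lef1, Dkk1, Sp5 and Axin2 fell, while Nkd1 and Notum did not pass the test, and the median of the 6 was −0.71. The median over all genes tested was 0.01. In 8 of the 10 genes the SOMA and SOMB libraries did not overlap, against 8.06% of all genes that were lower without overlap. Of the 10 genes, 7 fell with the replicate number as a block, and 6 to 8 fell when any 1 library was left out. That block covers all SOM groups, and the numbers do not match between SOMB and SOMC, so it does not account for pairs. The main test held no term for pairs either. SOMB2 was the lowest SOMB library for 8 genes (Wnt5a, Wnt5b, Rspo3, Axin2, Lef1, Dkk1, Sp5 and Nkd1), and without it 6 fell, with Axin2 and Sp5 lost. The part of its marker sums in these levels was not tested. All 8 differences had the same sign within the libraries with many reads outside features, which are only SOMA1 and SOMB1 here, and within the others.

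Wnt3a, a ligand of the β-catenin pathway that is made in the tail bud and is needed for mesoderm formation there, had the lowest mean of the 10 per kb of exon in each SOM group. It stood at 1.51, 6.43 and 5.06 CPM in SOMA1, SOMA3 and SOMA4 and at 0.453, 0.812, 0 and 0.442 CPM in SOMB1 to SOMB4. Every SOMA library was above every SOMB library, and SOMA1 was the lowest of its group. The log2 fold change from SOMA to SOMB was −3.20 ± 0.63 (SE), or 9.18-fold lower, with an adjusted p of 0.00371. SOMB3 had no Wnt3a count, and 3 counts in that library would be 0.206 CPM. The SOMB group held 35 Wnt3a counts in all and SOMD 11, so differences within the somites rest on few reads.

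Wnt5a, which acts mostly outside the β-catenin pathway and guides the elongation of the body axis, had the most even SOMA levels. They were 170, 174 and 166 CPM in SOMA1, SOMA3 and SOMA4, and 74.8, 42.0, 53.8 and 58.6 CPM in SOMB1 to SOMB4. The lowest SOMA value was thus far above the highest SOMB value, and the fold was 2.98 (log2 −1.58 ± 0.14, adjusted p = 4.13e-06). Its close relative Wnt5b stood at 22.6, 35.8 and 33.6 CPM in SOMA and at 14.4, 13.5, 18.9 and 20.4 CPM in SOMB. This smaller gap still left no overlap (log2 fold change −0.88 ± 0.17, adjusted p = 0.00277), though SOMA1 lay close to SOMB4.

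Rspo3, the only R-spondin among the 10, stood at 34.7, 63.7 and 62.6 CPM in SOMA1, SOMA3 and SOMA4. In SOMB1 to SOMB4 it stood at 10.6, 6.79, 8.77 and 7.96 CPM. The groups were well apart even with the low SOMA1 value, and Rspo3 was 6.29-fold lower in SOMB (log2 −2.65 ± 0.21, adjusted p = 1.07e-06). All 4 activators were lower in SOMB1 than in SOMA1, the libraries with many reads outside features, and lower in SOMB than in SOMA among the others. The differences were −1.66 and −4.53 on the log2 scale for Wnt3a, −1.18 and −1.74 for Wnt5a, −0.65 and −1.0 for Wnt5b, and −1.70 and −3.01 for Rspo3, in that order. In each case the first set, a single library of each group, gave the smaller difference.

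**Figure D1:**
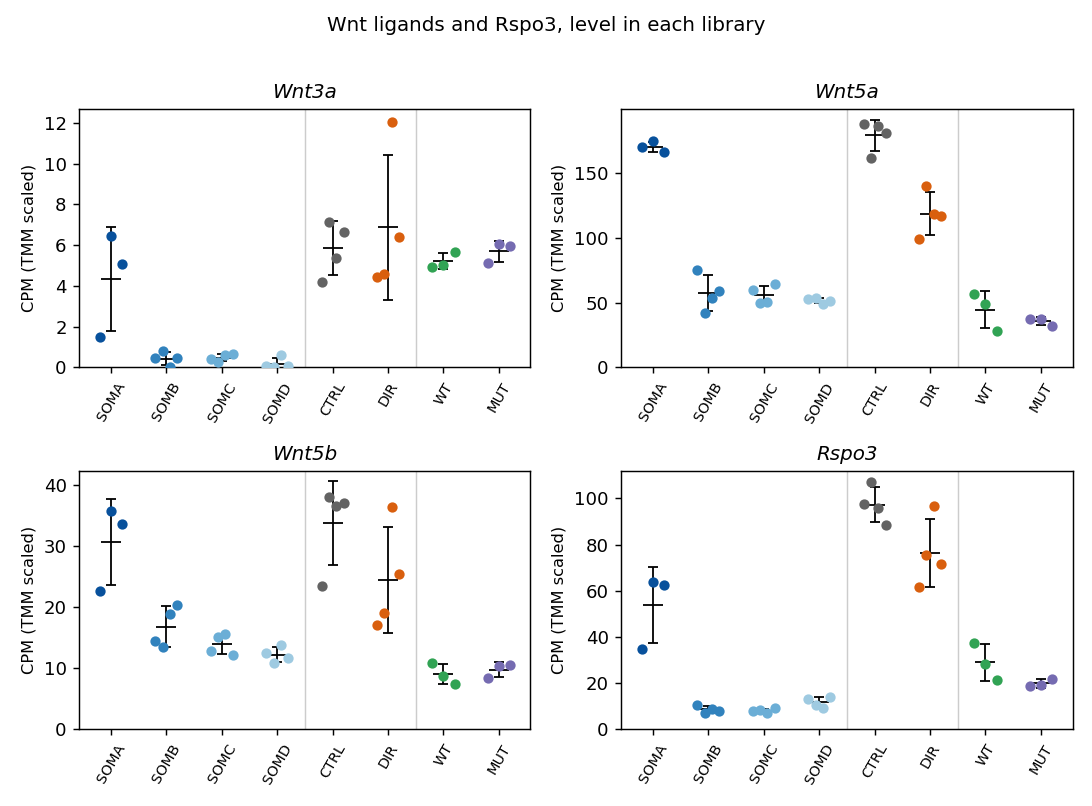
Level of each Wnt ligand and of Rspo3 in CPM (vertical axes, linear, from 0) in every library, by group; horizontal bars are group means and error bars are SD. SOMA libraries sit above all SOMB, SOMC and SOMD libraries for all 4 genes; CTRL and DIR libraries do so too, except that DIR1 and DIR2 lie within the SOMB range for Wnt5b.

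Lef1, the DNA-binding partner of β-catenin and itself a Wnt target, stood at 157, 227 and 194 CPM in SOMA1, SOMA3 and SOMA4 and at 71.9, 44.6, 89.0 and 62.5 CPM in SOMB. The groups were far apart, and Lef1 was 2.90-fold lower in SOMB (log2 −1.53 ± 0.20, adjusted p = 9.07e-05). Dkk1, a secreted antagonist that blocks the Lrp co-receptors, stood at 7.76, 13.9 and 18.3 CPM in SOMA and between 1.67 and 2.13 CPM in all 4 SOMB libraries. It was 7.14-fold lower (log2 −2.84 ± 0.38, adjusted p = 1.46e-04), the largest drop among the response genes. Sp5, a zinc finger repressor that is a direct Wnt target, stood at 8.95, 13.6 and 13.3 CPM in SOMA and at 4.90, 4.10, 7.05 and 7.37 CPM in SOMB. The 2 groups did not overlap (log2 −1.04 ± 0.29, adjusted p = 0.0347), but this call was lost when SOMA3, SOMA4, SOMB1 or SOMB2 was left out and with all libraries in 1 fit, with adjusted p up to 0.25.

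The remaining response genes changed little or not in this direction. Axin2, a scaffold of the β-catenin destruction complex and a widely used readout of the pathway, stood at 91.3, 104 and 93.7 CPM in SOMA and at 78.4, 58.9, 85.5 and 78.0 CPM in SOMB. All SOMB libraries were below all SOMA libraries, yet the fold was only 1.29 (log2 −0.37 ± 0.11, adjusted p = 0.0440). With the replicate block the adjusted p was 0.0911, and the call was lost under 10 of 15 alternatives, with adjusted p up to 0.224. Among these were leaving out any SOMA library or SOMB1, SOMB2 or SOMB4. Nkd1, which binds Dishevelled and dampens the signal inside the cell, stood at 80.7, 110 and 104 CPM in SOMA and at 75.1, 68.7, 92.1 and 79.4 CPM in SOMB. Its groups overlapped (log2 −0.32 ± 0.13, adjusted p = 0.175), and it passed only with the share of reads outside features as a term (adjusted p = 0.0277). Notum, a secreted enzyme that removes the lipid from Wnt proteins and so inactivates them, stood at 4.60, 11.6 and 7.52 CPM in SOMA and at 9.98, 10.6, 16.7 and 13.4 CPM in SOMB. It was the only 1 of the 10 with a fold change above 0 (log2 0.70 ± 0.25, adjusted p = 0.108), and without SOMA3 it passed the test at 1.08 (adjusted p = 0.0107).

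Markers of the presomitic mesoderm and tail bud fell at the same step. Their sum of 513 to 796 CPM in SOMA compared with 34.9 to 72.4 CPM in SOMB, and none of the 8 was at 0 in either group. In libraries made from mixed cells, fewer cells of a type and less RNA per cell cannot be told apart, and the part of the tail bud cells in the fall of the 8 genes was not tested. Markers of sclerotome, the ventral part of the somite, summed to 8.11 to 20.3 CPM in SOMA and to 67.9 to 174 CPM in SOMB.

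**Figure D2:**
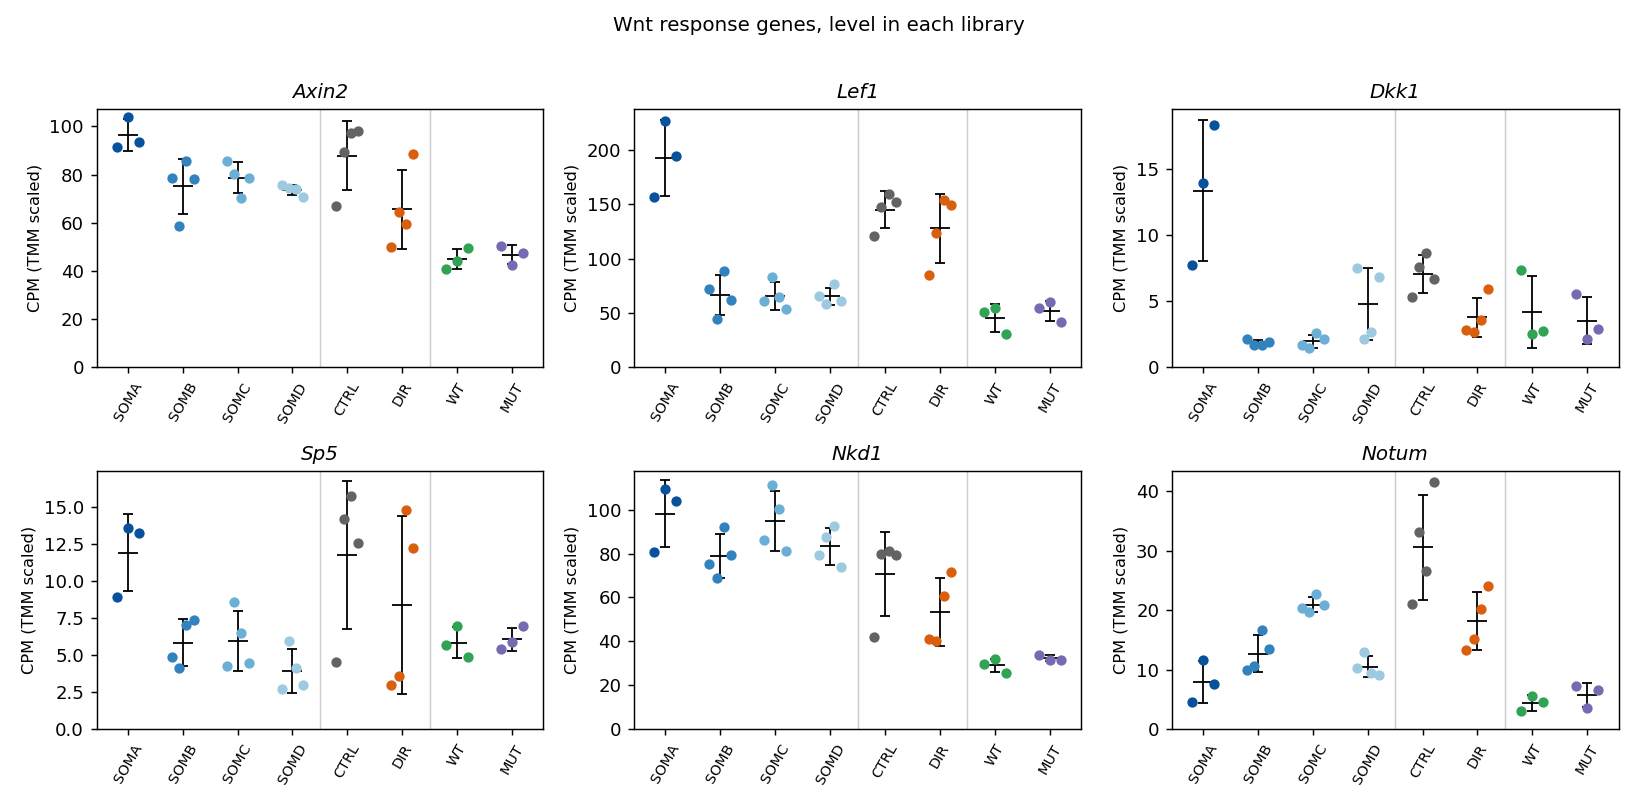
Level of each Wnt response gene in CPM (vertical axes, linear, from 0) in every library, by group; horizontal bars are group means and error bars are SD. Lef1 and Dkk1 drop between SOMA and SOMB, Axin2 and Nkd1 change little there, and Notum peaks in SOMC among the SOM groups.

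From SOMB to SOMC none of the 10 passed edgeR's quasi-likelihood test, against 0.827% of all genes. Unadjusted p-values were under 0.05 for Nkd1 and Notum, a threshold at which the share of all genes was not counted. DESeq2 also called none of the 10. Wnt5a averaged 57.3 ± 13.6 CPM (SD, n = 4) in SOMB and 56.1 ± 7.01 CPM in SOMC, Lef1 67.0 ± 18.5 and 65.6 ± 12.6 CPM, and Rspo3 8.53 ± 1.60 and 8.04 ± 0.777 CPM. For these genes the step already seen between SOMA and SOMB was followed by levels that differed by less than the spread between libraries. Notum was the exception in size. Its SOMC libraries stood at 20.4, 19.8, 22.7 and 20.8 CPM, each above the highest SOMB library (log2 0.74 ± 0.22, adjusted p = 0.159), and 3.34% of all genes were higher without overlap. With the share of reads outside features as a term this passed, at an adjusted p of 0.0384.

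From SOMC to SOMD Notum fell and the other 9 genes did not pass the test, where 1.07% of all genes fell, 1.26% rose and 2.34% changed either way. The SOMD libraries held 10.3, 13.0, 9.49 and 9.10 CPM of Notum, again with no overlap with SOMC (log2 −0.99 ± 0.22, adjusted p = 0.0282), where 4.12% of all genes were lower without overlap. Notum thus had its highest sorted level in somites 6 to 9. The call held with the replicate block, which does not account for pairs, but was lost under 8 of 16 alternatives. These were leaving out any of SOMC1, SOMC3, SOMC4, SOMD1, SOMD3 and SOMD4, summing the nearly identical libraries (adjusted p = 0.206), and fitting all libraries together.

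Dkk1 was low in SOMC (1.69, 1.49, 2.61 and 2.12 CPM) and split in SOMD, at 7.49 and 6.79 CPM in SOMD1 and SOMD4 and at 2.16 and 2.70 CPM in SOMD2 and SOMD3. The 2 high libraries are 1 of the nearly identical pairs. They also had the highest sums of roof plate and dorsal neural tube markers (75.0 and 77.7 CPM, against 46.9 and 40.7 CPM in SOMD2 and SOMD3). These markers include Zic1, which somites also express. The SOMD range of Zic1 alone, given below, is close to that of the whole sum. Markers of the neural tube did not split in this way, at 73.2, 56.0, 90.7 and 69.9 CPM in SOMD1 to SOMD4. Other lists did separate the pair from SOMD2 and SOMD3. Formed somite markers were lower in SOMD1 and SOMD4 (348 and 335 CPM, against 515 and 449 CPM). So were those of surface ectoderm (76.9 and 77.6 against 148 and 109 CPM) and tail bud (14.45 and 13.3 against 22.6 and 21.5 CPM). Notochord markers were lower too (4.04 and 3.77 against 8.12 and 7.10 CPM), and sclerotome markers higher (160 and 155 against 152 and 137 CPM). The part of any of these cell types in the Dkk1 level was not tested. Against SOMC the difference did not pass (log2 1.33 ± 0.37, adjusted p = 0.0760), though it did with DESeq2 (0.0150) and without SOMD2 (0.0209) or SOMD3 (0.0366). Against SOMB it passed (log2 1.43 ± 0.37, adjusted p = 0.0212), where 6.05% of all genes rose and 10.4% changed, and no other member was called. With the pair summed the adjusted p against SOMB was 0.0964, and it was also lost without SOMB2, SOMB4, SOMD1 or SOMD4. Among libraries with many reads outside features (SOMB1, SOMD1 and SOMD4) the difference was 1.73, and among the others 0.45, on the log2 scale. Rspo3 showed a smaller difference of the same kind, at 13.1, 10.6, 8.95 and 13.9 CPM in SOMD against 7.04 to 8.93 CPM in SOMC, which did not pass (log2 0.56 ± 0.20, adjusted p = 0.225). Its SOMC and SOMD libraries did not overlap, and 3.64% of all genes were higher without overlap.

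Over the whole series, from SOMA to SOMD, 8 of the 10 fell, where 8.92% of all genes fell and 19.8% changed. They were the same 8 genes as between SOMA and SOMB, and both comparisons share the SOMA libraries. Wnt3a had the largest fold (log2 −4.59 ± 0.76, adjusted p = 3.55e-04), from 4.33 ± 2.54 CPM (SD, n = 3) to 0.189 ± 0.288 CPM (n = 4). Rspo3 fell by 2.17 ± 0.20, Wnt5a by 1.71 ± 0.14, Sp5 by 1.60 ± 0.30, Lef1 by 1.54 ± 0.20 and Wnt5b by 1.31 ± 0.17, all on the log2 scale and with adjusted p of 0.00109 or less. Dkk1 (−1.41 ± 0.35, adjusted p = 0.00891) lost its call without SOMA4. It differed by −0.12 among the libraries with many reads outside features (SOMA1, SOMD1 and SOMD4) and by −2.71 among the others. Axin2 (−0.37 ± 0.11, adjusted p = 0.0231) lost its call under 6 of 15 alternatives, with adjusted p of 0.0525 with the replicate block, 0.0967 without SOMA3 and 0.0651 without SOMD4. Nkd1 (−0.22 ± 0.13, adjusted p = 0.281) and Notum (0.45 ± 0.25, adjusted p = 0.242) did not pass, though Notum did without SOMA3 (0.82, adjusted p = 0.0257).

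**Figure D3:**
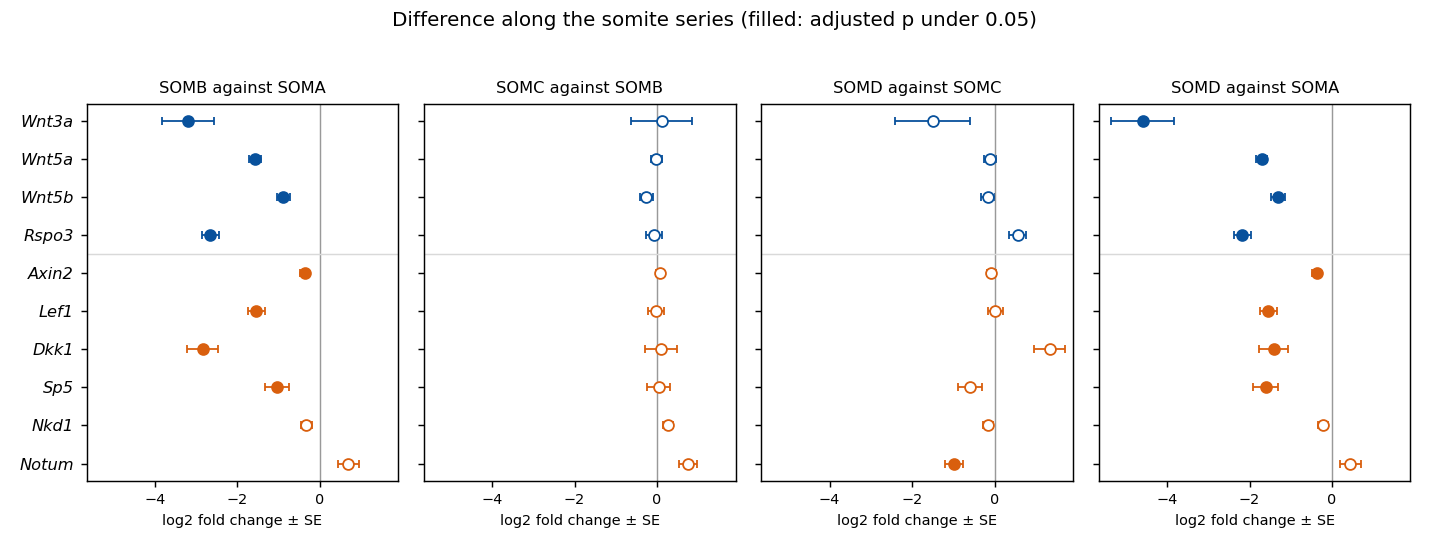
Log2 fold change of each gene with its SE (horizontal axes) in 4 comparisons of SOM groups; filled circles passed an adjusted p of 0.05, blue marks the activators and orange the response genes. The changes concentrate in SOMB against SOMA (8 filled circles), with none in SOMC against SOMB and Notum alone in SOMD against SOMC.

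Corrected for exon length, the order of the genes changed along the series. In SOMA, Lef1 (21.9 CPM per kb of exon), Wnt5a (21.7) and Nkd1 (21.5) were the most abundant, followed by Axin2 (17.5) and Rspo3 (17.4). In SOMD, Nkd1 (18.3 CPM per kb) and Axin2 (13.4) led, ahead of Lef1 (7.46), Wnt5a (6.57), Wnt5b (4.59) and Notum (4.35). The intracellular inhibitors Nkd1 and Axin2 were therefore the top members in the older somites, where Wnt3a stood at 0.0683 CPM per kb.

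By the likeness of their levels over the 15 SOM libraries, the genes closest to Wnt5a were Greb1 (Pearson r = 0.983 of log2 CPM), Sall4, Synm, Ddit4 and Hes7, all with r of 0.976 or more. Greb1 went from 287 CPM in SOMA to 77.6 CPM in SOMB, and Hes7, an oscillating gene of the segmentation clock, from 35.5 to 1.32 CPM. Closest to Rspo3 were Sept8 (r = 0.979), A130022J15Rik, Magi1, Ddit4 and Nkd2, the relative of Nkd1. Closest to Axin2 were Pdzrn3 (r = 0.935), Erc1, Mtss1l, Igsf3 and Cdk18. Closest to Wnt3a were Smug1 (r = 0.913), Larp7, 6720489N17Rik, Dguok and Sh3glb1, with folds far smaller than its own. Every gene named here had its highest mean in SOMA, so r is over libraries that fall into SOMA and the rest, and these libraries include the nearly identical pairs.

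On GRCm38 with GENCODE M21, Wnt3a lies at chr11:59248033-59290752 (minus strand), Wnt5a at chr14:28504750-28527448 (plus), Wnt5b at chr6:119432531-119544347 (minus) and Rspo3 at chr10:29452416-29535867 (minus). Axin2 lies at chr11:108920349-108950783 (plus), Lef1 at chr3:131110471-131224356 (plus), Dkk1 at chr19:30545863-30549665 (minus), Sp5 at chr2:70474923-70477729 (plus), Nkd1 at chr8:88521354-88594884 (plus) and Notum at chr11:120653788-120661175 (minus). The kit does not mark strand, so reads from an antisense gene cannot be told apart.

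Since response genes are read as targets of Tcf and Lef factors, the 250 bases before their starts were searched for the core of the Tcf/Lef motif, spelled CTTTG followed by 2 bases that are each A or T, on both strands. RefSeq start sites on GRCm38.p6 gave 12 such windows for 7 of the 10 genes (Sp5, Lef1, Wnt5b, Nkd1, Wnt3a, Axin2 and Dkk1). A match was present in 4 windows, 1 each of Sp5, Lef1, Wnt5b and Dkk1, and in 14.8% of all 32851 windows. Sp5 and Dkk1 each had 2 matches, which 1.43% of all windows reach. The window of Sp5, which fell between SOMA and SOMB, is shown beside that of Axin2, which fell least among the 8, with matches in capitals. Sp5 lies at chr2:70474673-70474922 on the plus strand, directly upstream of the gene, and its first match reads the motif on the other strand. Axin2 lies at chr11:108920099-108920348 on the plus strand, also directly upstream.
Sp5: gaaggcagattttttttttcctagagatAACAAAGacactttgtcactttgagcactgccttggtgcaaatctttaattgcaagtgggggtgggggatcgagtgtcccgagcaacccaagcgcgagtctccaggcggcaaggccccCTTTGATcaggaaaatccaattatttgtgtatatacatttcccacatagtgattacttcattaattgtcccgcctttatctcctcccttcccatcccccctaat
Axin2: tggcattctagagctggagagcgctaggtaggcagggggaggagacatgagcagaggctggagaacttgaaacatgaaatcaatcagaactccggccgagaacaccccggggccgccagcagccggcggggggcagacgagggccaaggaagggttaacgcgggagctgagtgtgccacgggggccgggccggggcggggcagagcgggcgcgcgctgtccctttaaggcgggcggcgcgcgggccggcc
Dkk1, the response gene with the largest drop, had both matches within 26 bases at chr19:30549588-30549613 on the minus strand, in a stretch that GENCODE places in an exon of the gene.
Dkk1: CTTTGAAatcccatcccggCTTTGTT
A match is a description of these letters, not a bound site, and Axin2 with no match in this window says nothing of Tcf and Lef binding elsewhere in the gene.

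The rest of the pathway was read from lists of 102 other genes, of which 101 were in the files. Between SOMA and SOMB 14 rose and 17 fell of the 95 tested (32.6%, against 8.67% of all genes). Among 16 other reported Wnt response genes, 9 fell and 1 rose between SOMA and SOMB. The 4 largest changes were in tail bud and presomitic transcription factors, Msgn1 (log2 −6.22 ± 0.45), Tbx6 (−5.07 ± 0.47), T (−4.19 ± 0.30) and Cdx4 (−3.71 ± 0.40), with adjusted p of 1.80e-05 or less. T, Tbx6 and Msgn1 are also in the list of tail bud and presomitic markers, and the fall of all 4 was larger than that of any of the 10 members. Myc, the single gene of the list that rose, is named after its value was seen (log2 0.65 ± 0.12, adjusted p = 0.00212). The list's median was −0.84.

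Among the 12 tested of 16 other Wnt ligands, 3 rose and 2 fell between SOMA and SOMB. Wnt2 rose from 10.3 ± 4.73 to 25.6 ± 3.84 CPM (log2 1.27 ± 0.29, adjusted p = 0.0108), and Wnt2b from 1.96 ± 0.373 to 4.69 ± 0.813 CPM (1.29 ± 0.30, adjusted p = 0.0115). Wnt8a (−1.91 ± 0.29, adjusted p = 4.80e-04) and Wnt8b (−1.44 ± 0.41, adjusted p = 0.0365) fell, from 1.89 ± 0.239 and 2.04 ± 0.811 CPM. Per kb of exon Wnt2 was the most abundant Wnt ligand gene in SOMB (11.4 CPM per kb), SOMC (13.8) and SOMD (8.04), ahead of Wnt5a (7.33, 7.17 and 6.57). In SOMA Wnt5a led (21.7), followed by Wnt5b (11.6), with Wnt2 at 4.58. Lateral plate markers summed to 155 to 231 CPM in SOMA and 112 to 209 CPM in SOMB. In SOMC they summed to 162 to 270 CPM and in SOMD to 119 to 167 CPM. The part of such cells in the Wnt2 level was not tested.

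**Figure D4:**
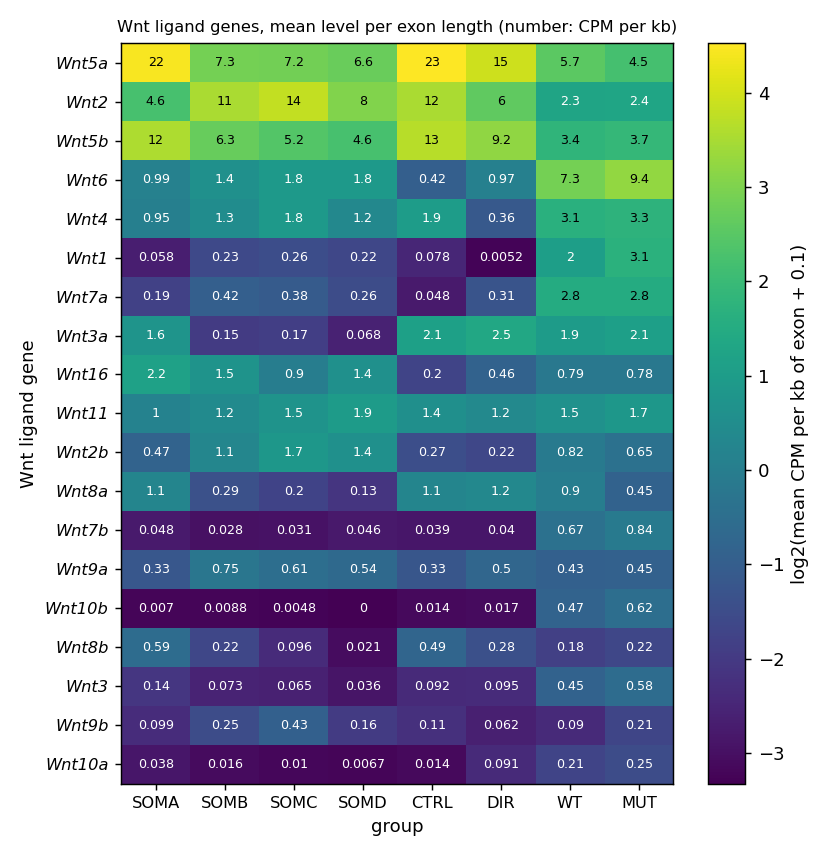
Mean level per kb of exon of all 19 Wnt ligand genes (rows) in the 8 groups (columns); colour is log2 of the mean CPM per kb plus 0.1, and the printed number is the mean CPM per kb. Wnt5a leads in SOMA, CTRL and DIR, Wnt2 in SOMB, SOMC and SOMD, and Wnt6 in WT and MUT.

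Receptors shifted in both directions, with 5 of 16 higher and 2 lower in SOMB than in SOMA. Ror1, a co-receptor for Wnt5a, rose (log2 1.47 ± 0.17, adjusted p = 3.26e-05), as did Fzd4 (1.20 ± 0.15, adjusted p = 6.88e-05) and Fzd7 (0.32 ± 0.08, adjusted p = 0.0195). Fzd10 (−0.81 ± 0.16) and Ptk7, a polarity co-receptor (−0.66 ± 0.10), fell. Among 11 tested secreted antagonists 3 rose, Dkk2 (1.33 ± 0.25), Sfrp1 (0.57 ± 0.16) and Sfrp2 (0.40 ± 0.07), and 2 fell, Cer1 (−2.70 ± 0.52) and Sfrp4 (−1.07 ± 0.25). Of the membrane and cytoplasmic inhibitors Nkd2 (−1.53 ± 0.12) and Apcdd1 (−0.83 ± 0.19) fell, 2 of 9. None of the 13 signal transducers was called by edgeR's quasi-likelihood test, with Ctnnb1, which encodes β-catenin, at 0.02 ± 0.07 and Tcf7 at −0.28 ± 0.15.

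Of the 3 other R-spondins, Rspo4 and Rspo2 rose in the older somites and Rspo1 did not pass. Rspo4 went from 1.70 ± 0.900 CPM in SOMB to 7.37 ± 0.555 in SOMC (log2 2.14 ± 0.39, adjusted p = 0.0200) and to 28.4 ± 15.1 in SOMD (1.97 ± 0.33 against SOMC, adjusted p = 0.00482). Rspo2 rose between SOMB and SOMD, from 3.46 ± 2.99 to 15.2 ± 3.47 CPM (2.10 ± 0.51, adjusted p = 0.0144), and passed at neither step between them. In SOMA Rspo2 averaged 6.55 ± 5.95 CPM, and SOMD against SOMA did not pass edgeR's quasi-likelihood test (1.18 ± 0.53, adjusted p = 0.138). Rspo1, named after its value was seen, averaged 12.9 ± 2.49 CPM in SOMB and 7.12 ± 2.17 CPM in SOMD (−0.85 ± 0.28, adjusted p = 0.0624). The antagonists Wif1 and Sfrp5 rose from SOMC to SOMD (1.09 ± 0.23 and 1.89 ± 0.28). Alternatives were run only for the members. The calls of Rspo4, Rspo2, Wif1 and Sfrp5 were therefore not checked with the nearly identical libraries summed. Between SOMB and SOMD 7 of the 16 other response genes fell and none rose, where 6.05% of all genes rose and 10.4% changed either way. Dkk1 was the only called member, and it was higher. Markers of roof plate and dorsal neural tube summed to 1.75 to 5.00 CPM in SOMA and 5.24 to 26.0 CPM in SOMB. They summed to 15.6 to 36.2 CPM in SOMC and 40.7 to 77.7 CPM in SOMD. Zic1, which somites also express, stood at 35.7 to 73.9 CPM in SOMD, close to the range of the sum. The part of these markers in the R-spondin levels was not tested.

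Untreated culture was compared with fresh SOMA cells, of which the labels give the same tissue source, the presomitic mesoderm. Of the 10 genes, 2 rose and 1 fell in CTRL, where 12.0% of all 14137 genes tested rose and 8.80% fell, 20.8% in all. None of the 3 Wnt ligands passed the test. Wnt5a stood at 187, 162, 186 and 181 CPM in CTRL1 to CTRL4 (log2 0.05 ± 0.10, adjusted p = 0.744), Wnt5b at 23.5, 38.1, 36.5 and 37.0 CPM (0.12 ± 0.21) and Wnt3a at 4.22, 7.15, 5.40 and 6.65 CPM (0.44 ± 0.42). A p that misses the threshold does not show equal levels, and for Wnt3a the SE allows a sizeable difference.

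Rspo3 was 97.7, 107, 95.7 and 88.5 CPM in CTRL, above all SOMA libraries (1.79-fold, log2 0.84 ± 0.20, adjusted p = 0.0187), and 19.3% of all genes were higher in CTRL without overlap. With the replicate number as a block its adjusted p was 0.0709. Notum was 21.0, 33.1, 26.6 and 41.5 CPM in CTRL, also above every SOMA library and above SOMC on average (3.87-fold over SOMA, log2 1.95 ± 0.33, adjusted p = 0.00431), and this held under all 13 alternatives run. Dkk1 fell to 5.33, 7.58, 8.65 and 6.68 CPM, overlapping with SOMA1 (log2 −0.94 ± 0.28, adjusted p = 0.0421), and this call was lost under 8 of the 13 alternatives, with adjusted p up to 0.196. These included leaving out CTRL2, CTRL3, CTRL4, SOMA3 or SOMA4. Lef1 (−0.43 ± 0.15, adjusted p = 0.0696), Nkd1 (−0.50 ± 0.23), Axin2 (−0.16 ± 0.15) and Sp5 (−0.04 ± 0.37) did not pass, though Lef1 did with DESeq2 (0.0483) and without SOMA1 (0.0491). The tail bud and presomitic marker sum was 249 CPM in CTRL1 and 483 to 509 CPM in CTRL2 to CTRL4. All were below the SOMA libraries (513 to 796 CPM). CTRL1 was also the lowest CTRL library for Sp5 (4.53 CPM against 12.6 to 15.7) and for Wnt3a, Wnt5b, Nkd1, Axin2, Lef1, Dkk1 and Notum. Endothelium markers summed to 218 to 277 CPM in CTRL and to 49.9 to 192 CPM in SOMA, also without overlap. The part of tail bud or endothelial cells in the Rspo3, Notum and Dkk1 levels was not tested. Culture and the set of libraries cannot be told apart in this comparison.

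Over all 8 lists of other pathway genes, 9 rose and 7 fell of 91 tested in culture (17.6%), near the 20.8% of all genes. Nkd2 fell by 2.05 ± 0.16 on the log2 scale, Cer1 by 2.16 ± 0.23, and the ligand Wnt16 by 3.45 ± 0.26, with adjusted p of 5.26e-04 or less. Wnt2 (1.29 ± 0.31), Rspo4 (2.17 ± 0.27), Ror1 (1.36 ± 0.22) and Fzd4 (0.95 ± 0.20) rose, as did the inhibitors Dkk3 (0.89 ± 0.15) and Kremen1 (0.58 ± 0.14). Among the 16 other response genes 2 fell, Cdx1 (−1.68 ± 0.24) and Ccnd1 (−0.47 ± 0.10), and none rose.

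Treatment with LDN and SAG was compared with untreated culture. None of the 10 passed edgeR's quasi-likelihood test in DIR against CTRL, where 0.747% of all 14190 genes tested were called, although 9 of the 10 folds were below 0. Unadjusted p-values were under 0.05 for Wnt5a, Rspo3, Dkk1 and Notum, and DESeq2 called Wnt5a. The shares of all genes with an unadjusted p under 0.05 or a DESeq2 call were not counted. The median log2 fold change was −0.41 for the 4 activators and −0.46 for the 6 response genes, against −0.01 for all genes.

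Wnt5a came closest to a call. It stood at 99.3, 140, 118 and 117 CPM in DIR1 to DIR4, below all 4 CTRL libraries (1.52-fold, log2 −0.60 ± 0.12, adjusted p = 0.0683), and 4.40% of all genes were lower without overlap. Its adjusted p was 0.00206 with DESeq2, 0.0105 with a term for the share of multiply aligned reads and 0.0204 with all libraries in 1 fit. That share was 22.3 to 25.4% in CTRL1, DIR1 and DIR2 and at most 19.5% in the other cultures. Over all genes tested, CTRL1 deviated from its group together with DIR1 and DIR2 (correlations 0.761 and 0.734). It deviated opposite to DIR3 and DIR4 (−0.666 and −0.782). Wnt5a differed by −0.67 within the set of CTRL1, DIR1 and DIR2 and by −0.59 within the other cultures. Even so, every DIR library of Wnt5a was above every SOMB library, the highest of which held 74.8 CPM.

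Dkk1 stood at 2.85, 2.69, 3.59 and 5.94 CPM in DIR (log2 −0.91 ± 0.28, adjusted p = 0.209) and Notum at 13.2, 15.2, 20.1 and 24.1 CPM (−0.76 ± 0.26, adjusted p = 0.236). Both overlapped with CTRL in 1 library pair or more, and both passed only with a term for the share of multiply aligned reads (adjusted p = 0.0391 and 0.0388). Rspo3 stood at 61.5, 75.4, 96.5 and 71.8 CPM (−0.36 ± 0.15, adjusted p = 0.307) and Axin2 at 50.1, 64.5, 59.5 and 88.5 CPM (−0.42 ± 0.19, adjusted p = 0.337). Sp5 split within DIR, at 2.97 and 3.58 CPM in DIR1 and DIR2 and at 14.8 and 12.3 CPM in DIR3 and DIR4. The same split held for Nkd1 (40.9 and 40.3 against 60.5 and 71.7 CPM), for Lef1 (85.2 and 123 against 154 and 149 CPM) and for Wnt5b (17.1 and 19.0 against 36.3 and 25.4 CPM). DIR1 and DIR2 were also both below DIR3 and DIR4 for Dkk1, Notum and Wnt3a. Tail bud and presomitic markers summed to 288 and 387 CPM in DIR1 and DIR2 and to 841 and 692 CPM in DIR3 and DIR4, and their part in the levels of these genes was not tested. Wnt3a was the only member with a fold above 0, at 4.44, 4.60, 12.1 and 6.39 CPM (0.22 ± 0.34, adjusted p = 0.786), and without DIR3 its fold was −0.19. Sclerotome markers summed to 20.3 to 59.7 CPM in DIR and to 11.4 to 17.4 CPM in CTRL. Markers of lateral plate summed to 60.9 to 81.8 CPM in DIR and to 166 to 271 CPM in CTRL, and those of intermediate mesoderm to 22.1 to 46.7 and to 58.1 to 90.7 CPM. The part of these cell types in the lower Wnt5a, Wnt4 and Frzb levels in DIR was not tested.

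In the other pathway lists 3 of 93 genes tested were called between DIR and CTRL (3.23%, against 0.747% of all genes). Wnt4 fell from 8.03 ± 2.16 to 1.49 ± 0.540 CPM (log2 −2.43 ± 0.30, adjusted p = 0.00628). The antagonist Frzb fell from 82.5 ± 14.0 to 40.6 ± 6.31 CPM (−1.03 ± 0.16, adjusted p = 0.0211). Wnt7a rose from 0.153 ± 0.118 to 0.990 ± 0.191 CPM (2.63 ± 0.49, adjusted p = 0.0487) and is named after its value was seen, being scarcer than the genes otherwise named. Sfrp2 (−0.57 ± 0.12, adjusted p = 0.0686) and Tcf7 (−0.36 ± 0.11, adjusted p = 0.209) did not pass.

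**Figure D5:**
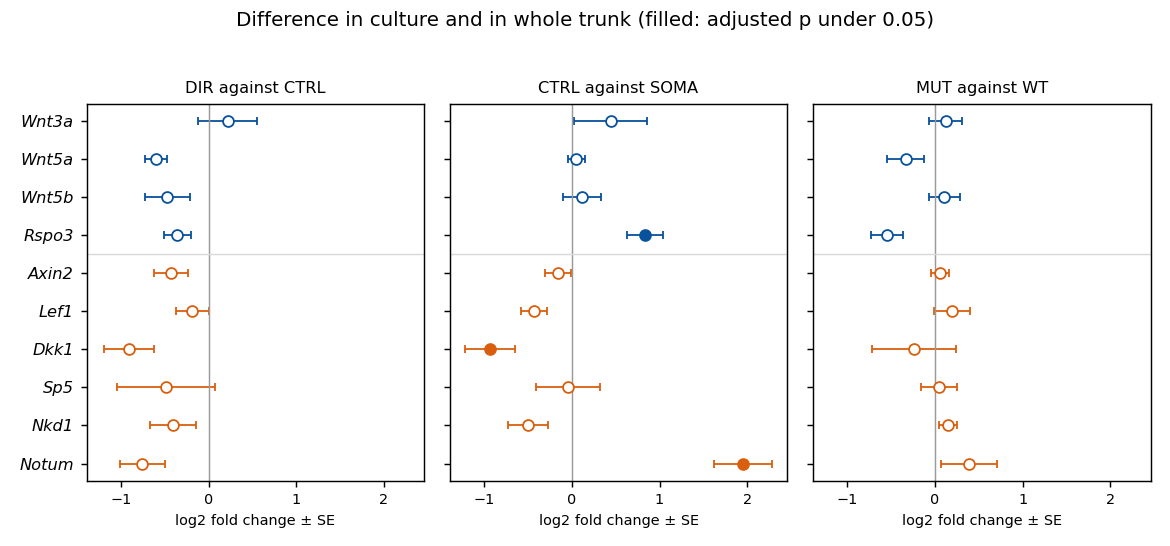
Log2 fold change of each gene with its SE (horizontal axes) for DIR against CTRL, CTRL against SOMA and MUT against WT; filled circles passed an adjusted p of 0.05, blue marks the activators and orange the response genes. Notum and Rspo3 rise and Dkk1 falls in culture, while all circles are open in the other 2 comparisons.

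In the trunk libraries no member passed edgeR's quasi-likelihood test between MUT and WT, where 0.338% of all 14485 genes tested were called. An unadjusted p under 0.05 was found only for Rspo3, which DESeq2 also called (adjusted p = 0.0336). The shares of all genes past these 2 thresholds were not counted. Rspo3 stood at 37.3, 28.1 and 21.5 CPM in WT1 to WT3 and at 18.5, 19.1 and 21.9 CPM in MUT1 to MUT3 (log2 −0.55 ± 0.18, adjusted p = 0.183). WT3 lay within the MUT range, so the groups overlapped. Wnt5a showed a like spread, at 56.6, 48.7 and 28.4 CPM in WT and 37.2, 37.3 and 32.0 CPM in MUT (−0.33 ± 0.21, adjusted p = 0.514). WT3, the lowest WT library for both, also differed from WT1 and WT2 in marker sums. Tail bud and presomitic markers summed to 96.9 CPM there against 249 and 202 CPM, surface ectoderm and other epithelium to 127 against 299 and 362 CPM, and roof plate and dorsal neural tube to 171 against 88.3 and 55.6 CPM. Their part in these levels was not tested. Axin2 stood at 41.0 to 49.5 CPM in WT and 42.7 to 50.2 CPM in MUT (0.05 ± 0.10, adjusted p = 0.856). None of the 8 lists of other pathway genes held a call, with Ctnnb1 at −0.08 ± 0.05 and Fzd7 at −0.04 ± 0.06.

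Across the 8 groups the members fell into a few orders of level. Wnt5a was highest in CTRL (179 ± 11.9 CPM) and SOMA (170 ± 4.05), whose libraries overlapped, then DIR (118 ± 16.5), which overlapped with neither of its neighbours in this order, and then SOMB, SOMC, SOMD, WT and MUT (57.3 to 35.5 CPM on average), each overlapping with the next. Wnt3a was highest in DIR, CTRL, MUT, WT and SOMA (6.88 to 4.33 CPM on average), with overlap between neighbours, and all these libraries were above all SOMB, SOMC and SOMD libraries. Rspo3 was ordered CTRL, DIR, SOMA, WT and MUT (97.2 to 19.8 CPM on average), with each neighbour overlapping, above SOMD, SOMB and SOMC (11.6 to 8.04). Wnt5b ran from 33.8 CPM in CTRL to 9.02 CPM in WT, with the only gap between neighbours between SOMD and MUT.

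Among the response genes Nkd1 had a gap between DIR (53.4 ± 15.4 CPM) and MUT (32.3 ± 1.27), with all sorted and cultured groups above both trunk groups. Axin2 (96.4 ± 6.74 CPM in SOMA to 44.9 ± 4.27 in WT), Lef1 (193 ± 35.1 in SOMA to 45.5 ± 12.7 in WT) and Sp5 (11.9 ± 2.59 in SOMA to 3.95 ± 1.48 in SOMD) had no gap between any neighbouring groups. Dkk1 (13.3 ± 5.30 in SOMA to 1.86 ± 0.213 in SOMB) and Notum (30.6 ± 8.81 in CTRL to 4.38 ± 1.32 in WT) had none either. Sorting, culture and tissue differ between these sets of groups, and the order across sets was not tested. WT and MUT libraries also had 38.8 to 40.6% of reads aligned at more than 1 place, against at most 25.4% elsewhere.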

How the data were processed

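RNA from 29 libraries was sequenced after a kit that does not mark strand, and the authors deposited whole-number counts of reads per gene, 1 file per library. The tools were HTSeq 0.6, TopHat2 2.0.9, DESeq2 1.10 and Cufflinks with mm10, per the submitters' processing notes. Neither annotation nor strand setting is given in the sources used here. The 5 HTSeq summary lines stayed out of library sizes (no feature 6.54 to 12.8%, ambiguous 0.584 to 1.85%, multiply aligned 15.9 to 40.6%). Multiply aligned reads were thus not counted for any gene.

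Counts were tested with edgeR 4.0.16 (R 4.3.3) by its quasi-likelihood test, with filterByExpr (minimum count 10, total 15), TMM scaling and Benjamini-Hochberg adjustment over all genes, at a threshold of 0.05. The 4 SOM groups shared 1 fit, and DIR with CTRL, CTRL with SOMA, and MUT with WT had their own. The code was tested on simulated data. Levels are CPM with TMM over all libraries, and ± is the SD for levels and the SE for log2 fold changes. Levels are compared between genes only per kb of exon, with exon lengths from GENCODE M21, a build-matched annotation. Promoter windows came from RefSeq.

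The members and lists were chosen with earlier results of these data known. All 10 members were named; other pathway genes were named when among the 4 largest called changes of a list at a mean of 1 CPM or more, and Tcf7, Wnt3, Sfrp1, Sfrp2, Fzd7, T and Ctnnb1 in any case. The 5 most similar genes were named at a mean of 5 CPM or more. Same-numbered libraries deviated together in SOMB with SOMA (correlations 0.361 to 0.421 over 3 pairs) and SOMD with SOMC (0.377 to 0.479 over 4 pairs). This counts as pairing by the data, as the labels do not say what a number shares. Numbers did not match between SOMB and SOMC, where SOMC2 went with SOMB3 (0.431) and SOMC3 with SOMB4 (0.388). The replicate block covered all SOM groups together, so it joined unmatched libraries and does not account for the pairing. The main SOM tests were unpaired, and no test with the matched libraries as pairs was run. Alternatives were other scaling, no filter, DESeq2 1.42.0, a replicate block, each library left out, summed nearly identical libraries, 1 fit of all libraries, and terms for read shares or Xist.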

Additional observations from a re-analysis of the deposited data

Results flagged for a closer look

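Of 50 sets of 4 libraries of 1 gene in 1 group, 3 had 1 library far from the other 3 by Dixon's criterion, where chance gives about 1 in 20. Wnt3a was 0.617 CPM in SOMD3 and 0 to 0.0711 CPM in the other SOMD libraries. Wnt5b was 23.5 CPM in CTRL1 and 36.5 to 38.1 CPM in the other CTRL libraries. Nkd1 was 41.8 CPM in CTRL1 and 79.4 to 81.2 CPM in the others.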

How the results depend on the processing

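Of the log2 fold changes of single genes under all alternatives, 1071 kept their direction and side of the threshold, 44 lost a call, 15 gained one and 56 changed sign, all of the last in genes without a call. Between SOMA and SOMB 6 to 8 genes fell and 0 to 1 rose with 1 library left out, and between SOMA and SOMD 7 to 8 fell and 0 to 1 rose. With the replicate block 7 fell in each of these, with Axin2 lost (adjusted p = 0.0525 between SOMA and SOMD), 1 rose and 0 fell between SOMA and CTRL, and the other counts did not change. Outside the paired comparisons, the libraries that correlated best with their own number were 1 of 8 for SOMC with SOMB and SOMD with SOMB, 1 of 6 for SOMD with SOMA and CTRL with SOMA, 3 of 8 for DIR with CTRL and 4 of 6 for MUT with WT. Between SOMB and SOMC 1 gene rose with the share of reads outside features as a term. Between SOMC and SOMD 1 rose with DESeq2, 0 fell with nearly identical libraries summed or all libraries in 1 fit, and 0 to 1 rose and 0 to 1 fell with 1 library left out. Between SOMB and SOMD 0 rose with nearly identical libraries summed and 0 to 1 with 1 left out. Between CTRL and DIR 1 fell with DESeq2, 1 with all libraries in 1 fit and 3 with a term for multiply aligned reads. Between SOMA and CTRL 0 fell with library totals or all libraries in 1 fit, 2 with DESeq2 and 0 to 2 with 1 left out. Between WT and MUT 1 fell with DESeq2. The causes were not tested, and the shares of all genes under these alternatives were not counted.

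Changes of sign in the log2 fold change were as follows. From SOMB to SOMC they were Wnt5a 0.0004 with library totals, Lef1 0.027 with nearly identical libraries summed and 0.0068 with the read share term, and Sp5 −0.0077 with the block. From SOMC to SOMD, Lef1 was −0.023 with nearly identical libraries summed. From SOMB to SOMD, Axin2 was 0.031 with totals and 0.0046 with the block, and Lef1 0.023 with totals, 0.0076 with the block, 0.0045 with nearly identical libraries summed and 0.036 with the read share term. Sp5 was 0.0555 from SOMA to CTRL with totals. With Xist as a term, MUT against WT gave Wnt3a −0.012, Wnt5b −0.025, Dkk1 0.37 and Sp5 −0.047. With 1 library left out, the log2 fold changes from SOMB to SOMC ran from −0.23 to 0.64 for Wnt3a, −0.15 to 0.14 for Wnt5a, −0.18 to 0.060 for Rspo3, −0.033 to 0.15 for Axin2, −0.19 to 0.15 for Lef1, −0.051 to 0.19 for Dkk1 and −0.19 to 0.17 for Sp5. From SOMC to SOMD Lef1 ran from −0.065 to 0.16. From SOMB to SOMD Wnt5a ran from −0.27 to 0.0285, Axin2 from −0.11 to 0.070 and Lef1 from −0.17 to 0.17. Wnt3a ran from −0.19 to 0.39 between CTRL and DIR. Between SOMA and CTRL Wnt5b ran from −0.053 to 0.28 and Sp5 from −0.21 to 0.25. Between WT and MUT Wnt5b ran from −0.014 to 0.26, Axin2 from −0.0032 to 0.13, Lef1 from −0.022 to 0.35, Dkk1 from −0.73 to 0.44 and Sp5 from −0.0675 to 0.20. Depth limits Wnt3a in the somites, where a library with no count allows up to 0.206 CPM in SOMB3 and 0.259 CPM in SOMD2, from 3 counts and for counting error only.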

Other observations

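Unsorted trunk tissue held Wnt ligand genes that were scarce in the sorted and cultured cells. Wnt6 averaged 15.9 ± 5.57 CPM (SD, n = 3) in WT and 20.6 ± 2.45 in MUT, against at most 3.92 in any other group. Wnt7a averaged 8.76 ± 1.99 CPM in WT and 8.76 ± 2.47 in MUT, against at most 1.32 elsewhere. Wnt1 averaged 4.79 ± 0.848 CPM in WT and 7.41 ± 0.297 in MUT, against at most 0.618 elsewhere, and none of these passed the test between MUT and WT. Wnt16 averaged 9.43 ± 2.01 CPM in SOMA, 0.889 ± 0.255 in CTRL and 1.99 ± 0.668 in DIR.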
